A study of Mus musculus with 22 samples.

Results

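The genes described here are 34 genes of macrophages and monocytes, measured in a sort of muscle stem cells. They came as a list of names, chosen with earlier results of these data known. All 34 were found by symbol among the 43430 genes in the files. RNA was sequenced from 22 libraries of sorted muscle stem cells of Pax7-zsgreen mice, whose fluorescent reporter marks cells that express Pax7. The 6 groups were uninjured muscle at ZT4 and at ZT16 (3 libraries each), hindlimb muscle 1 day after cardiotoxin at ZT4 and at ZT16 (4 each), and the same 3 days after cardiotoxin (4 each). All groups shared the reporter genotype, perfusion with cold PBS and then 0.5% paraformaldehyde, quenching with glycine, RNA extraction with a kit for fixed tissue (miRNeasy FFPE) and SMART-seq v4 libraries. Cardiotoxin is a snake toxin that destroys muscle fibers, and ZT is zeitgeber time, hours after lights on. For injured muscle the protocol ties ZT4 and ZT16 to the injury, whereas the uninjured libraries carry a ZT in their titles with no injury, so the time may mean different things in the 2 states. The labels give neither the hour of collection nor the age or sex of the mice. The design text of the series names ZT16 and day 1 alone, whereas the treatment protocol names both times and both days. Whether the replicates come from separate mice is not in the labels, so the p-values measure the spread between these libraries, which may be technical.

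Macrophages are phagocytes that clear dead cells and debris and direct repair. In injured muscle, circulating monocytes that carry the chemokine receptor CCR2 enter the tissue as inflammatory cells and later turn into macrophages that carry CX3CR1 and support the growth of new fibers. A sort for a stem cell reporter should hold few such cells, and muscle stem cells are not known as a main source of these transcripts. In a sorted bulk sample, fewer cells of a type and less RNA per cell cannot be told apart, and these data do not show which cells the RNA came from.

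The gene Spi1 encodes PU.1, the transcription factor that sets the myeloid fate, which binds sites with the core GAGGAAGT. Promoters of 27 of the 34 genes were matched in RefSeq (build GRCm38.p6) and read over the 250 bases before the gene's start, on both strands. The letters GAGGAAGT were in 1 of the 27 (3.7%; C1qc), against 2.79% of 27025 genes. The shorter GAGGAA, which the longer core contains, was in 15 of the 27 (55.6%), against 25.9% of all genes. A match of letters is a description and shows no binding. Below, each GAGGAA or its reverse complement TTCCTC is in capitals. The stretches given as examples are the 100 bases before the start of 5 of the 27 genes, 5′ to 3′ on the gene's strand. They are from Clec4e (chr6:123289872-123289971, minus strand), C1qb (chr4:136886201-136886300, minus strand), Itgam (chr7:128062540-128062639, plus strand), Trem2 (chr17:48346301-48346400, plus strand) and Chil3 (chr3:106167565-106167664, minus strand).
Clec4e: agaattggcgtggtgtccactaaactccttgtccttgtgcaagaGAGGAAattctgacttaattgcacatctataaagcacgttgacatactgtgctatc
C1qb: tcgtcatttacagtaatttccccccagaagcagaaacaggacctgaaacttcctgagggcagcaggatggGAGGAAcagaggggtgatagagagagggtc
Itgam: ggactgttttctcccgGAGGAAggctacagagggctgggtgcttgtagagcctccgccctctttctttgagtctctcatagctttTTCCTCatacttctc
Trem2: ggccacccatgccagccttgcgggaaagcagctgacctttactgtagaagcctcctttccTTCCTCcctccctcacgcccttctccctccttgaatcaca
Chil3: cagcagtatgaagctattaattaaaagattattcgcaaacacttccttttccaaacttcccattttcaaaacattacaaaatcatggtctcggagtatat
Chil3, which had the largest fitted change of the 34 genes at day 1, held no match in this stretch, and Itgam held 2. Among genes not shown, some held a match there and others, such as Lyz2, Gpnmb and Cd68, held none. The examples therefore do not give the rate of matches over the 27 genes.

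Library totals were 5965957 to 9751536 estimated counts, and 15812 to 23089 genes had counts. A set of 4 day 3 libraries had the most genes with counts, which were ZT4 replicates 1 (23089) and 2 (20632) and ZT16 replicates 3 (18770) and 4 (20237). Pax7, which defines the sorted cells, was at 322 ± 28.3 CPM (SD, n = 6) in uninjured libraries, 58.2 ± 11.3 (n = 8) at day 1 and 22.6 ± 3.12 (n = 8) at day 3. Myod1, the factor of activated myogenic cells, was at 253 ± 48.5, 1339 ± 79.9 and 816 ± 88.3. CPM values are counts scaled to a common library total with TMM factors, so each level is relative to the other RNA in the library. The 11 markers of muscle stem cells summed to 5295 to 6766 CPM in uninjured, 4056 to 4887 at day 1 and 3088 to 3570 at day 3 libraries.

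In uninjured muscle the 34 genes were barely seen. Their summed level was 50.7, 78.9 and 78.7 CPM in the ZT4 libraries and 146, 80.6 and 52.9 in the ZT16 libraries, so ZT16 replicate 1 stood above the other 5. Lyz2, which encodes the lysozyme of macrophages and granulocytes, led by level per length with 25.1 ± 16.9 TPM (SD, n = 6), a unit that divides counts by transcript length and so allows genes to be compared. Gpnmb, a lysosomal glycoprotein of repair macrophages and pigment cells, came next with 8.26 ± 3.1 TPM, and the ranges of the pair overlapped. A set of 4 genes had no counts in any uninjured library. They were Cd300lb and Tlr13, both receptors of myeloid cells, Ms4a7, a membrane protein of macrophages, and Clec4d, a lectin that senses fungal and mycobacterial lipids.

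**Figure D1:**
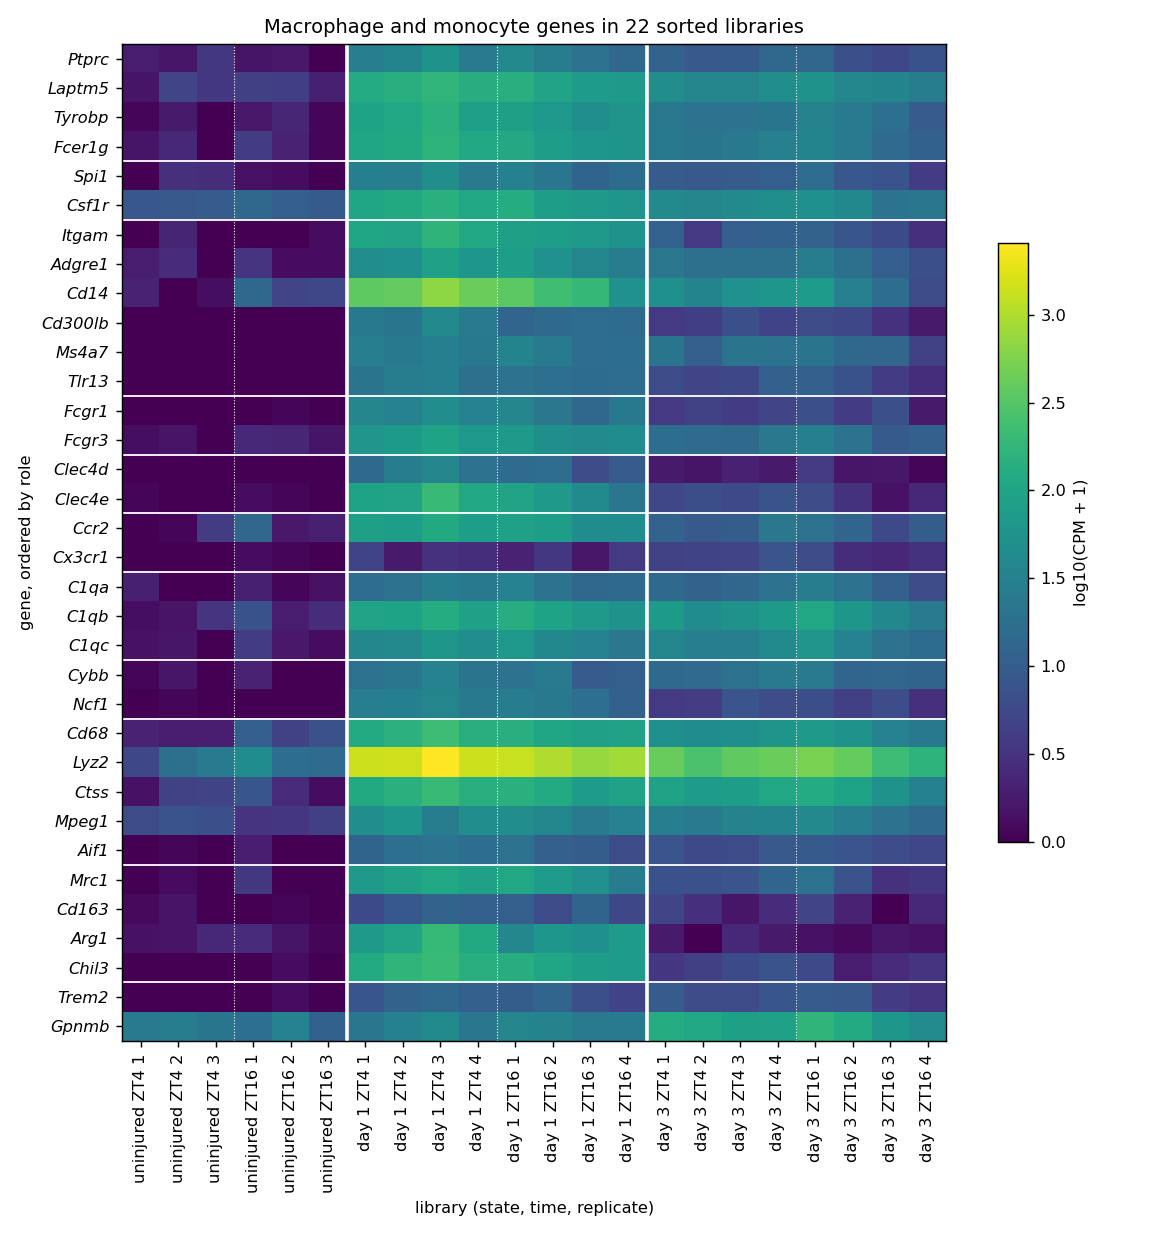
Level of each of the 34 genes (rows, ordered by role) in each of the 22 libraries (columns), as colour on a scale of log10(CPM + 1). The 8 day 1 libraries are the brightest block for most rows, the uninjured libraries are near 0 for most, and Arg1 and Chil3 are bright at day 1 and dim at day 3.

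The day 1 libraries of both times were set against the uninjured libraries of both times, to compare the level of the 34 genes. Their summed level was far higher after injury, between 1983 and 6101 CPM at day 1 (median 3618, n = 8), against 50.7 to 146 (median 78.8, n = 6). In edgeR's quasi-likelihood test 33 of the 34 were higher at an adjusted p below 0.05, and none was lower. All 34 passed the filter on low counts, but 25 of them had 10 counts or more in fewer than 3 uninjured libraries and so entered the test through the injured ones, where they were high. For these a difference was built in, and their share of the count supports nothing. Of the other 9 (Laptm5, Csf1r, Cd14, C1qb, Cd68, Lyz2, Ctss, Mpeg1 and Gpnmb), 8 were higher and Gpnmb did not pass. The uninjured counts of Csf1r carry a caveat given below. For genes outside these 9, each fold change and adjusted p against uninjured muscle given below has the same limit and is a description. Over all 15084 genes tested 75.2% were called, 34.6% as higher and 40.6% as lower. The same 33 had no day 1 library at or below the highest uninjured library, a description with the same limit, which held in this direction for 21.5% of all genes.

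The pan-leukocyte and signalling genes rose together. Ptprc, which encodes the leukocyte phosphatase CD45, ranged from 0 to 2.56 CPM in uninjured libraries (median 0.666) and from 12.6 to 54.4 at day 1 (median 27.0). Tyrobp, which encodes the adaptor DAP12, ranged from 0 to 1.29 CPM and from 48.2 to 148 CPM. The groups did not overlap for either gene. The log2 fold changes were 5.28 ± 0.42 (SE) for Ptprc (adjusted p = 1.62e-10) and 7.44 ± 0.39 for Tyrobp (8.06e-13). Both genes are among the 25 that entered the test through injured libraries, so these p-values are descriptions. Fcer1g, the signalling chain of Fc receptors, and Laptm5, a lysosomal membrane protein of blood cells, rose by 6.59 and 5.55.

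The lineage factor Spi1 ranged from 0 to 1.98 CPM in uninjured libraries and from 11.7 to 47.6 at day 1, with no overlap (log2 5.49 ± 0.51, adjusted p = 3.6e-09). Csf1r, which encodes the receptor for CSF1 on which macrophages depend, went from 7.45 to 13.3 CPM to 57.9 to 144 CPM, also with no overlap (3.43 ± 0.24, adjusted p = 6.26e-11). The uninjured level of Csf1r needs a caveat on its transcripts. All 403 of its uninjured counts were assigned to the longer of its transcripts (4701 bases) and 0 to the shorter (3870 bases). The longer lies over exons of Hmgxb3 on the opposite strand for 873 bases and the shorter for 0, and the strand of counting is not given in the sources used here, so reads of Csf1r and Hmgxb3 cannot be told apart there. The shorter transcript was at 51.9, 63.8, 97.3 and 46.0 CPM in the day 1 ZT4 libraries, at 68.6, 28.2, 1.12 and 17.0 in the day 1 ZT16 libraries, and at 0 to 6.26 at day 3. It was thus high in most day 1 libraries and near 0 in day 1 ZT16 replicate 3 and at day 3. Hmgxb3 itself was at 24.8 to 52.2 CPM in uninjured libraries and 55.0 to 64.9 at day 1. With the shorter transcript alone, an alternative added after seeing the data, Csf1r was still higher at day 1 than in uninjured muscle, but day 3 no longer passed (log2 6.57 ± 3.04, adjusted p = 0.0656).

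**Figure D2:**
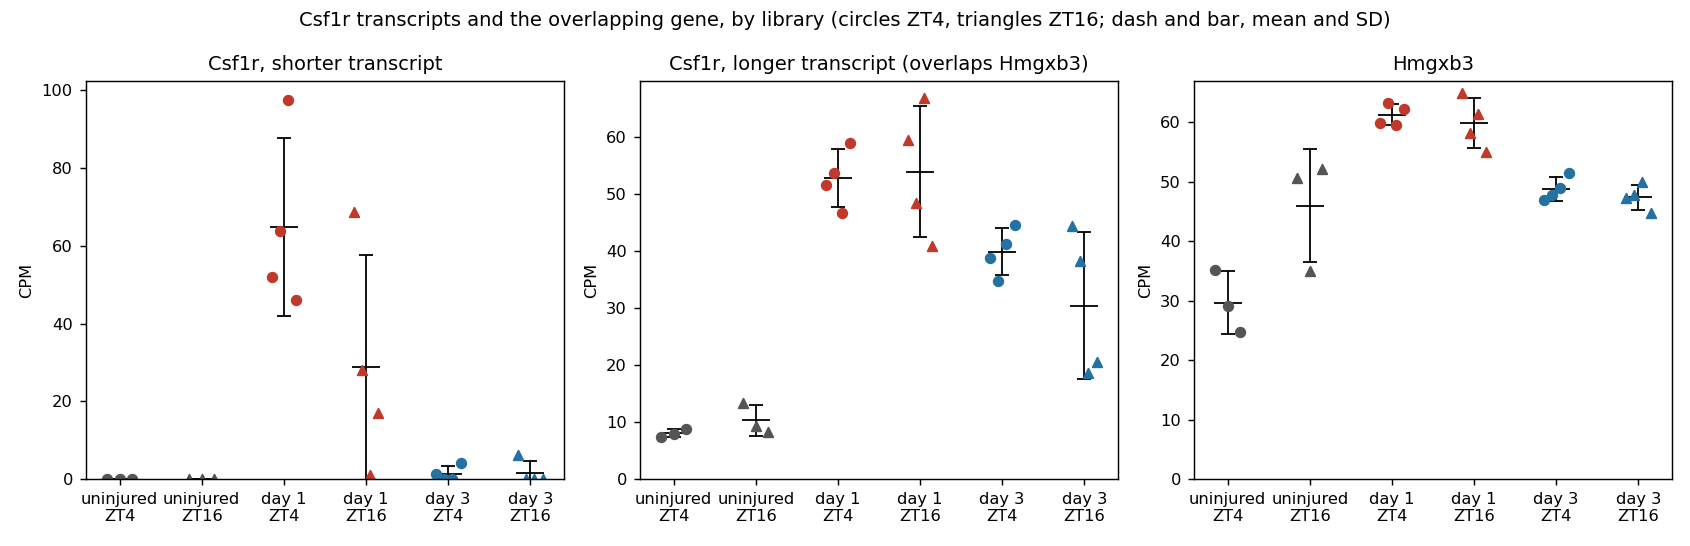
CPM of the shorter and the longer Csf1r transcript and of Hmgxb3, with 1 point per library in each of the 6 groups and the mean and SD as dash and bar. The shorter transcript is at 0 in all uninjured libraries and reaches 97.3 CPM at day 1, whereas the longer is at 7.45 to 13.3 CPM in the uninjured libraries.

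Genes of the myeloid surface gave some of the largest rises. Itgam, which encodes the integrin CD11b of monocytes, macrophages and granulocytes, was at 0 in 4 of the 6 uninjured libraries and at 1.24 CPM at most, against 55.4 to 165 at day 1 (log2 8.68 ± 0.57, adjusted p = 8.62e-11). The annotation shares bases of Itgam with the gene model Gm49368, so its counts may be split. Adgre1, which encodes F4/80, the classical marker of mouse macrophages, ranged from 0 to 2.29 and from 26 to 86.9 CPM (5.86 ± 0.50). Cd14, which encodes the co-receptor for bacterial lipopolysaccharide, ranged from 0 to 12.6 and from 51.8 to 665 CPM (7.32 ± 0.71, adjusted p = 6.2e-08). None of these overlapped between the states, and of the 3 genes Cd14 had the widest range at day 1. For the 4 genes without uninjured counts, the day 1 level was at least 348-fold higher for Ms4a7, 294-fold for Cd300lb, 286-fold for Tlr13 and 245-fold for Clec4d, taking 3 counts over the uninjured group as the floor. These bounds and the intervals below cover counting error only.

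The Fc receptor genes rose as well. Fcgr3 ranged from 0 to 1.43 CPM in uninjured libraries and from 40.9 to 94.7 at day 1 (log2 6.66 ± 0.36). Fcgr1, the high-affinity receptor for IgG, had counts in 1 uninjured library, and its pooled level was 1264-fold higher at day 1 (95% interval 227 to 49968). Clec4e, which encodes the receptor Mincle that senses dead cells and mycobacterial lipid, was at 0.287 CPM or less before injury and at 20.8 to 205 at day 1 (9.75 ± 0.66, adjusted p = 1.51e-10).

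Of the chemokine receptors, Ccr2 dominated at day 1. It ranged from 0 to 12.5 CPM in uninjured libraries, with the top value in ZT16 replicate 1 and 2.88 or less in the others, and from 43.8 to 115 at day 1 (log2 5.23 ± 0.61, adjusted p = 5.78e-07). Cx3cr1 rose from at most 0.287 to between 0.635 and 3.82 CPM (pooled ratio 29.0, 95% interval 9.69 to 143; adjusted p = 1.52e-06). Per length, Cx3cr1 was the lowest of the 34 genes at day 1, at 0.789 ± 0.424 TPM (n = 8).

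The 3 chains of complement C1q, a product of tissue macrophages, rose side by side. C1qb ranged from 0.339 to 6.16 CPM in uninjured libraries and from 54.3 to 133 at day 1, without overlap (log2 5.83 ± 0.48, adjusted p = 4.19e-09). C1qa and C1qc rose by 5.42 and 5.86. The oxidase genes Cybb, the catalytic chain of the enzyme that makes the respiratory burst, and Ncf1, its cytosolic organizer, went from at most 1.15 and 0.124 CPM to 8.89 to 31.3 and 10.4 to 34.7 CPM. Ncf1 lies over exons of Gtf2ird2 on the opposite strand, so its reads may be mixed with those of that gene.

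Lysosome and killing genes had the largest sum of any role at day 1, 954 to 3009 CPM, most of it from Lyz2. Lyz2 (GRCm38 chromosome 10, 117277331 to 117282321) ranged from 4.4 to 43.8 CPM in uninjured libraries (median 16.5) and from 760 to 2549 at day 1 (median 1350), with no overlap (log2 6.05 ± 0.45, adjusted p = 1.67e-09). Its near-identical copy Lyz1 stayed at 4.11 CPM or less in every library. Cd68, a lysosomal membrane protein of macrophages (chromosome 11, 69664213 to 69666153), went from 0.801 to 9.31 CPM to 89.0 to 217 CPM (5.70 ± 0.31, adjusted p = 2.3e-12). Ctss, the lysosomal protease of antigen-presenting cells, rose by 5.51, and Aif1, an actin-binding protein of macrophages, by 6.58. Mpeg1, a pore-forming protein of phagocytes, had the smallest rise of the 33 genes (3.30 ± 0.25). It was already at 2.29 to 6.56 CPM before injury and reached 24.0 to 60.4 at day 1.

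The genes of scavenging and alternative activation rose. Chil3, the chitinase-like protein Ym1 (GRCm38 chromosome 3, 106147554 to 106167564), had 2 counts in all uninjured libraries together and 75.3 to 205 CPM at day 1. Its pooled level was 2746-fold higher (95% interval 760 to 22677). Its copy Chil4 was at 0.155 CPM or less throughout. Arg1, the arginase that competes with nitric oxide synthesis for arginine (chromosome 10, 24915221 to 24927484), ranged from 0.142 to 1.58 CPM in uninjured libraries and from 36.3 to 189 at day 1 (log2 6.72 ± 0.39, adjusted p = 2.37e-12). Mrc1, the mannose receptor CD206, and Cd163, the hemoglobin scavenger receptor, rose by 8.0 and 5.94, with no overlap for any of the 4 genes.

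Of the lipid and repair genes, Trem2, a lipid receptor that signals through DAP12, went from at most 0.286 to 3.88 to 12.8 CPM (pooled ratio 196, 95% interval 54.0 to 1623). Gpnmb (GRCm38 chromosome 6, 49036546 to 49070929) was the exception among the 34 genes. It was at 25.2, 27.2 and 20.2 CPM in uninjured ZT4 libraries, 16.8, 31.1 and 10.4 in uninjured ZT16 libraries, and 20.7 to 40.9 at day 1. The states overlapped, and the change did not pass (log2 0.39 ± 0.30, adjusted p = 0.233). Without uninjured ZT16 replicate 2 it did pass (0.76, adjusted p = 0.0312). Over all alternatives the adjusted p ran from 9.65e-05 to 0.672. The lower end came from the fit with no filter on low counts, and the next smallest was 0.0312.

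The ligands of these receptors were in the same libraries, and all 8 measured were higher at day 1. Csf1, the growth factor for CSF1R, went from 24.6 ± 9.02 (SD, n = 6) to 421 ± 58.5 CPM (n = 8; log2 4.16 ± 0.13, adjusted p = 9.72e-18), and Il34, the other ligand of that receptor, from 3.13 ± 3.35 to 29.3 ± 7.81. Ccl2 and Ccl7, both attractants of CCR2-bearing monocytes, rose from 6.65 ± 7.91 to 314 ± 106 CPM and from 5.76 ± 7.38 to 456 ± 182 CPM. Ccl8 and Ccl12 reached 11.5 ± 4.21 and 27.0 ± 8.53 CPM. Csf2, which encodes GM-CSF, had no uninjured counts and 2.43 ± 0.647 CPM at day 1. Cx3cl1, the ligand of CX3CR1, rose least, from 51.9 ± 9.3 to 74.3 ± 8.43 CPM (0.53 ± 0.14, adjusted p = 0.00143).

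Other myeloid genes were described with lists that are not independent of earlier results on these libraries. Of 12 inflammatory monocyte genes 11 were higher at day 1 and 1 did not pass, with a median log2 of 7.77. Osm, the cytokine oncostatin M, went from 0.0714 ± 0.12 to 83.4 ± 45.4 CPM. Of 9 tested genes of resident macrophages 6 were higher and 3 lower, among them Pf4 (0.776 ± 0.271 to 141 ± 39.2 CPM). All 6 tested class II antigen presentation genes were higher, with Cd74, the invariant chain, at 19.6 ± 9.78 and 113 ± 35.2 CPM. Of 25 tested phagocytosis genes 17 were higher and 6 lower. Lists that many cell types express were split, with 11 of 26 lysosome genes higher and 9 lower, and 6 of 12 lipid-handling genes higher and 6 lower.

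Markers of neutrophils and mast cells were high in the same libraries. The 11 neutrophil markers summed to 0 to 3.71 CPM in uninjured, 31.5 to 322 at day 1 and 7.52 to 19.1 at day 3 libraries, and all 6 that were tested rose at day 1. The defining markers Ly6g, Ngp and Camp were at 0 in every day 1 library, whereas S100a8 and S100a9 reached 37.1 ± 25.9 and 25.6 ± 21.3 CPM. The 8 mast cell markers summed to 1.28 to 26.1 CPM in uninjured, 60.1 to 252 at day 1 and 67.3 to 116 at day 3 libraries. Their part in the result was not tested. T cell, NK cell and eosinophil markers summed to at most 14.8, 1.18 and 5.6 CPM in any library. The 8 endothelial markers summed to 112 to 203 CPM in uninjured, 39.0 to 101 at day 1 and 17.8 to 30.3 at day 3 libraries, and the 9 fibro-adipogenic markers to 477 to 642, 105 to 178 and 489 to 1158.

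**Figure D3:**
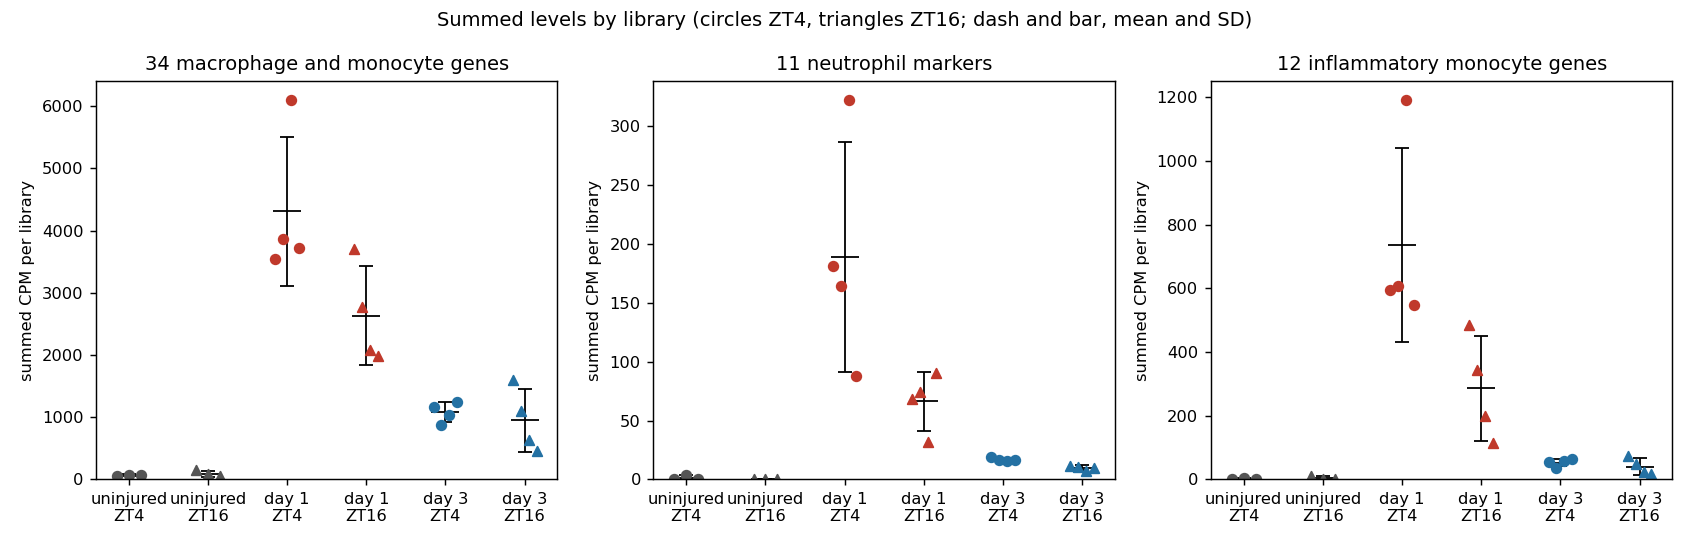
Summed CPM of the 34 macrophage and monocyte genes, of 11 neutrophil markers and of 12 inflammatory monocyte genes, with 1 point per library in each group and the mean and SD as dash and bar. The 34 genes sum to 1983 to 6101 CPM at day 1 and 456 to 1593 at day 3, and day 1 ZT4 replicate 3 is the highest point in each panel.

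Day 3 was compared with uninjured muscle and with day 1 to follow the same genes into repair. These comparisons and the one above share their libraries. The 34 genes summed to 1169, 872, 1038 and 1249 CPM in the day 3 ZT4 libraries and 1593, 1104, 639 and 456 in the day 3 ZT16 libraries, so every day 3 library was below every day 1 library and above every uninjured one. The mean of the sums at day 3 was 0.293 of that at day 1. Against uninjured muscle 33 of the 34 genes were still higher, where 76.9% of all genes tested were called, 37.9% as higher and 39.1% as lower. The same 25 genes entered this test through injured libraries, so the count is a description. All of the other 9 were higher, among them Csf1r, whose call was lost with its shorter transcript alone (adjusted p = 0.0656). The exception among the 34 was Arg1, at 0 to 1.48 CPM at day 3 and 0.142 to 1.58 before injury (−0.41 ± 0.62, adjusted p = 0.56). Ranges at day 3 and in uninjured libraries did not overlap for 29 genes, higher at day 3, a pattern in 24.6% of all genes. The genes that overlapped were Cd14, Ccr2, Mrc1, Cd163 and Arg1. Within the ZT16 libraries alone Cd14 (2.25, adjusted p = 0.0798) and Ccr2 (1.32, adjusted p = 0.194) did not pass, and uninjured ZT16 replicate 1 had the highest uninjured level of both.

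Against day 1, 26 of the 34 genes were lower at day 3, 1 was higher and 7 did not pass, with a median log2 of −1.76. Of all genes tested 55.4% were called, 28.7% as lower and 26.7% as higher, around a median of −0.017. All but Arg1 and Clec4d had 10 counts or more in at least 3 libraries at both days. For 20 genes every day 3 library lay below every day 1 library (12.3% of all genes), and for 1 gene above (13.7%).

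**Figure D4:**
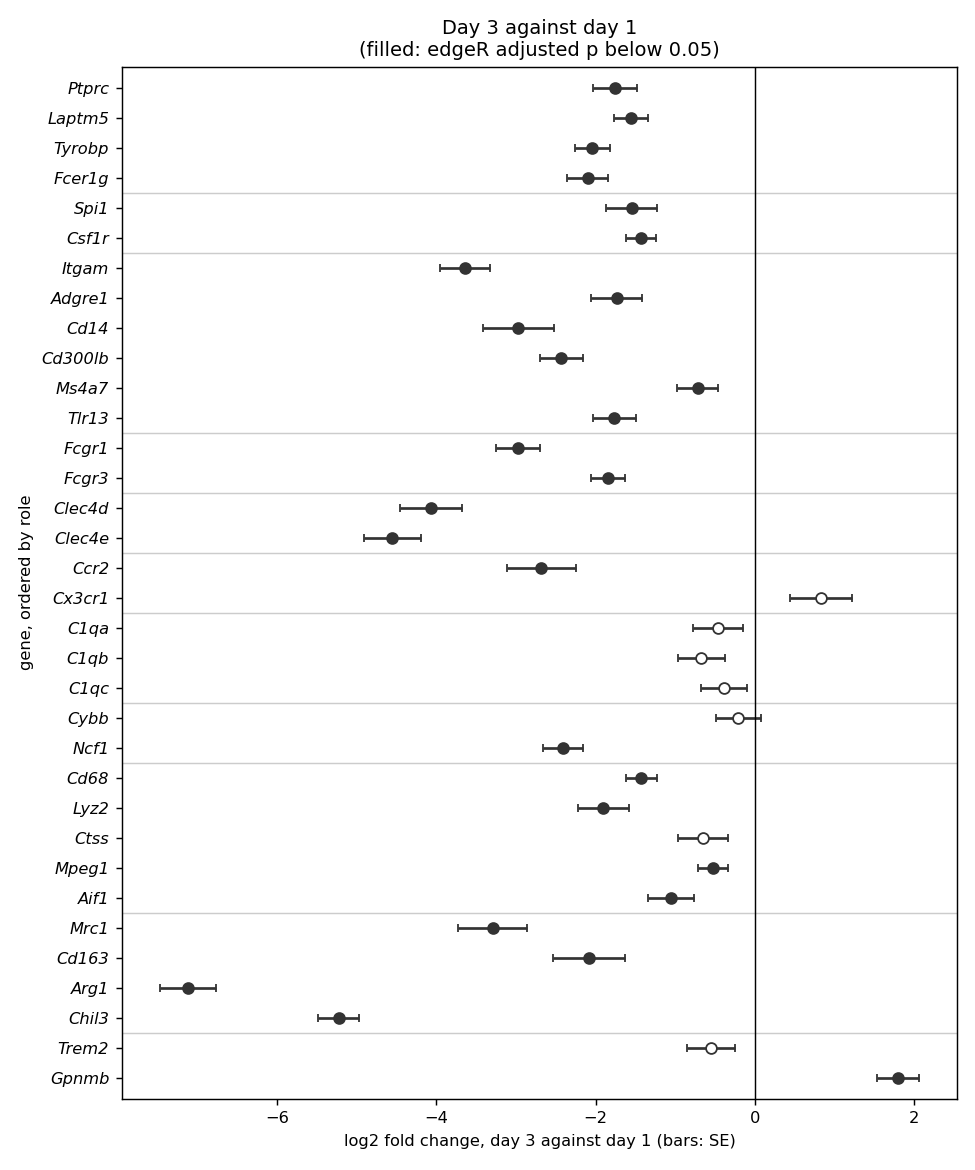
Fitted log2 fold change of each of the 34 genes from day 1 to day 3, with SE as bars, ordered by role. Filled points passed an adjusted p of 0.05, and they run from −7.12 (Arg1) to 1.81 (Gpnmb), whereas the open points of the C1q chains, Cybb, Ctss, Trem2 and Cx3cr1 lie nearer to 0.

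Arg1 and Chil3 fell most. Arg1 was at 69.0, 96.3, 189 and 118 CPM in day 1 ZT4 libraries and 36.3, 61.1, 50.7 and 73.7 in day 1 ZT16 libraries. At day 3 it was at 0.785, 0, 1.48 and 0.787 CPM at ZT4 and 0.411, 0.236, 0.64 and 0.453 at ZT16. All 8 day 3 libraries were thus within or below the uninjured range (log2 −7.12 ± 0.35, adjusted p = 1.04e-12). Chil3 fell from 75.3 to 205 CPM to 0.827 to 6.43 CPM (−5.23 ± 0.26, adjusted p = 9.28e-12), which still lay above every uninjured library.

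Clec4e and a group of surface genes also fell. Clec4e was at 92.6, 96.9, 205 and 106 CPM in day 1 ZT4 libraries and 97.5, 69.6, 41.6 and 20.8 at day 1 ZT16. At day 3 it was at 4.39, 5.56, 4.6 and 6.69 CPM at ZT4 and 4.93, 2.13, 0.48 and 1.36 at ZT16. No day 3 library reached the lowest day 1 library (log2 −4.56 ± 0.36, adjusted p = 3.83e-09). Clec4d (log2 −4.07), Itgam (−3.64), Fcgr1 (−2.97) and Cd300lb (−2.43) fell as well. Cd14 fell from 51.8 to 665 CPM to 5.28 to 72.0 CPM (−2.97 ± 0.45, adjusted p = 2.56e-05), and its states overlapped through day 1 ZT16 replicate 4, the library at 51.8.

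Ccr2 and Cx3cr1 parted at day 3. Ccr2 fell from 43.8 to 115 CPM to 4.64 to 21.4 CPM, with no overlap (log2 −2.68 ± 0.43, adjusted p = 5.05e-05). Cx3cr1 was at 3.82, 0.789, 2.02 and 1.79 CPM at day 1 ZT4 and 1.21, 2.57, 0.635 and 2.77 at day 1 ZT16. At day 3 it was at 3.77, 4.03, 4.16 and 6.82 CPM at ZT4 and 4.93, 1.77, 1.44 and 2.11 at ZT16. These ranges overlapped, and its change of 0.84 ± 0.39 did not pass (adjusted p = 0.0769). It passed without day 1 ZT4 replicate 1 (adjusted p = 0.0345) and in voom (1.02, adjusted p = 0.0105; 0.0105 to 0.491 over all alternatives). Cx3cl1, the ligand, fell to 6.98 ± 1.9 CPM, below its uninjured level (−2.88 ± 0.15 against uninjured, adjusted p = 1.12e-14).

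The C1q chains, Cybb, Ctss and Trem2 did not pass against day 1 in edgeR. In voom, lower levels passed for C1qa (−0.60, adjusted p = 0.0429), C1qb (−0.84, 0.00367), Ctss (−0.77, 0.00677) and Trem2 (−0.71, 0.00983), whereas C1qc and Cybb did not pass there either. C1qb was at 95.6, 93.4, 129 and 87.5 CPM at day 1 ZT4 and 133, 93.6, 69.6 and 54.3 at day 1 ZT16. At day 3 it was at 70.3, 44.8, 53.3 and 71.5 CPM at ZT4 and 106, 63.0, 37.7 and 25.4 at ZT16. The ranges overlapped (log2 −0.67 ± 0.29, adjusted p = 0.0607). Over all alternatives the adjusted p ran from 2.17e-09, in the fit with no filter on low counts, to 0.417. The change passed without day 1 ZT16 replicate 4 (0.0397) or without day 3 ZT16 replicate 1 (0.0101). Without the latter library C1qc (main −0.39 ± 0.29, adjusted p = 0.27) and Ctss (−0.65 ± 0.31, 0.0871) passed too, at 0.0379 and 0.035. Cybb changed by −0.21 ± 0.28, C1qa by −0.46 ± 0.31 and Trem2 by −0.55 ± 0.30, with adjusted p of 0.554, 0.22 and 0.126. A p above the threshold does not show that these levels were equal.

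Genes of the leukocyte, lysosome and scavenger groups fell as well. Lyz2 was at 407, 269, 372 and 422 CPM at day 3 ZT4 and 520, 404, 215 and 156 at day 3 ZT16, all below the lowest day 1 value of 760 (log2 −1.90 ± 0.32, adjusted p = 8.73e-05). The leukocyte genes Ptprc (−1.76), Laptm5 (−1.55), Tyrobp (−2.04) and Fcer1g (−2.10) fell, as did Spi1 (−1.55), Csf1r (−1.43), Adgre1 (−1.74), Tlr13 (−1.76), Fcgr3 (−1.85) and Cd68 (−1.43). The caveat on the Csf1r transcripts holds here too. Its change ran from −4.72 to −1.11 over all alternatives, among them the shorter transcript alone. Mrc1 (−3.29), Ncf1 (−2.41) and Cd163 (−2.08) fell too. Smaller falls were found for Aif1 (−1.05 ± 0.29, adjusted p = 0.00314), Ms4a7 (−0.72 ± 0.25, 0.0224) and Mpeg1 (−0.53 ± 0.19, 0.02). These 3 calls were less secure: without the 4 day 3 libraries that had the most genes with counts their adjusted p was 0.0779, 0.168 and 0.423, and within the ZT16 libraries alone 0.237, 0.152 and 0.245. Ms4a7 also lost its call without day 1 ZT16 replicate 1 (0.0679), and Mpeg1 without that library (0.0665) or without day 1 ZT4 replicate 2 (0.0674).

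Gpnmb alone was higher at day 3 than at day 1. It was at 127, 105, 86.6 and 87.1 CPM at day 3 ZT4 and 167, 120, 61.9 and 42.7 at day 3 ZT16, and every one of these was above the highest day 1 library, at 40.9 (log2 1.81 ± 0.27, adjusted p = 1.41e-05). Against uninjured muscle the change was 2.20 ± 0.30 (adjusted p = 2.56e-06).

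Among the other lists, Lgals3, the lectin galectin-3, was at 5.23 ± 2.9 CPM in uninjured, 223 ± 59.6 at day 1 and 690 ± 69.9 at day 3 libraries, higher at day 3 than at day 1 (log2 1.64 ± 0.15, adjusted p = 1.24e-08). It is the upper end of the 12 lipid-handling genes, whose changes ran from −1.245 to 1.641 and were split. Of these 12 genes 5 were higher at day 3 than at day 1, 6 lower and 1 did not pass. The shares over all genes tested were 26.7% higher and 28.7% lower, against which the list counts here are set. Of 12 inflammatory monocyte genes 10 were lower and 2 did not pass, of 9 resident macrophage genes 7 were lower, and of the 8 ligands 7 were lower. Csf1 fell to 137 ± 17.6 CPM, Ccl2 to 24.3 ± 10.7 and Ccl7 to 43.1 ± 22.6, whereas Il34, at 22.5 ± 3.49, did not pass (−0.36 ± 0.28, adjusted p = 0.284). Of 6 class II genes 2 were lower and 4 did not pass, Cd74 among these at 103 ± 39.8 CPM. All 6 tested neutrophil markers fell, S100a9 to 0.141 ± 0.164 and S100a8 to 0.336 ± 0.275 CPM, and their part in the fall of genes that neutrophils also express, such as Itgam, Cd14, Clec4d and Clec4e, was not tested.

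Since the total fell, its make-up was described by the share of each gene in the summed TPM of the 34 genes in its library, with no test. Shares sum to 100 in each library, so a fall of some genes raises the others. Day 3 shares lay above all day 1 shares for 9 genes (Cx3cr1, C1qa, C1qb, C1qc, Cybb, Ctss, Mpeg1, Trem2 and Gpnmb), below them for 5 (Fcer1g, Clec4d, Clec4e, Arg1 and Chil3), and overlapped for 20. Lyz2 took the most in both states, 38.8% to 45.9% at day 1 and 35.5% to 40.7% at day 3. Chil3 went from 2.85% to 3.77% at day 1 to 0.0667% to 0.456% at day 3, Arg1 from 0.89% to 3.28% to 0% to 0.135%, and Clec4e from 0.599% to 2.0% to 0.0526% to 0.477%. C1qb went from 2.76% to 4.74% to 6.97% to 8.97%, Ctss from 3.21% to 4.52% to 6.99% to 9.04%, and Gpnmb from 0.179% to 0.39% to 2.28% to 4.18%. In uninjured libraries, where the sum was small, Gpnmb held 4.38% to 32.7%, C1qb 1.25% to 6.37% and Ctss 0.723% to 7.1%.

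Ratios of a pair of genes in the same library do not depend on that sum. The TPM ratio of Cx3cr1 to Ccr2 ranged from 0.0108 to 0.0644 at day 1 (median 0.0216) and from 0.159 to 0.581 at day 3 (median 0.298). That of Arg1 to C1qb ranged from 0.188 to 1.0 (median 0.607) and from 0 to 0.0194 (median 0.00771). Chil3 to C1qb went from 0.653 to 1.2 to 0.00879 to 0.0593, and Mrc1 to C1qb from 0.081 to 0.17 to 0.0152 to 0.0321. The states did not overlap in any of these ratios. Trem2 to C1qb did overlap, at 0.0663 to 0.124 and 0.0773 to 0.119. By TPM, the order at day 1 was Lyz2 (1583 ± 622, SD, n = 8), Tyrobp (315 ± 117) and Cd14 (305 ± 160), the latter pair within each other's spread. At day 3 it was Lyz2 (408 ± 149), Ctss (88.0 ± 33.5) and C1qb (83.3 ± 36.5), the latter pair within their spread, and Arg1 and Cd163 were last (0.599 and 0.579).

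**Figure D5:**
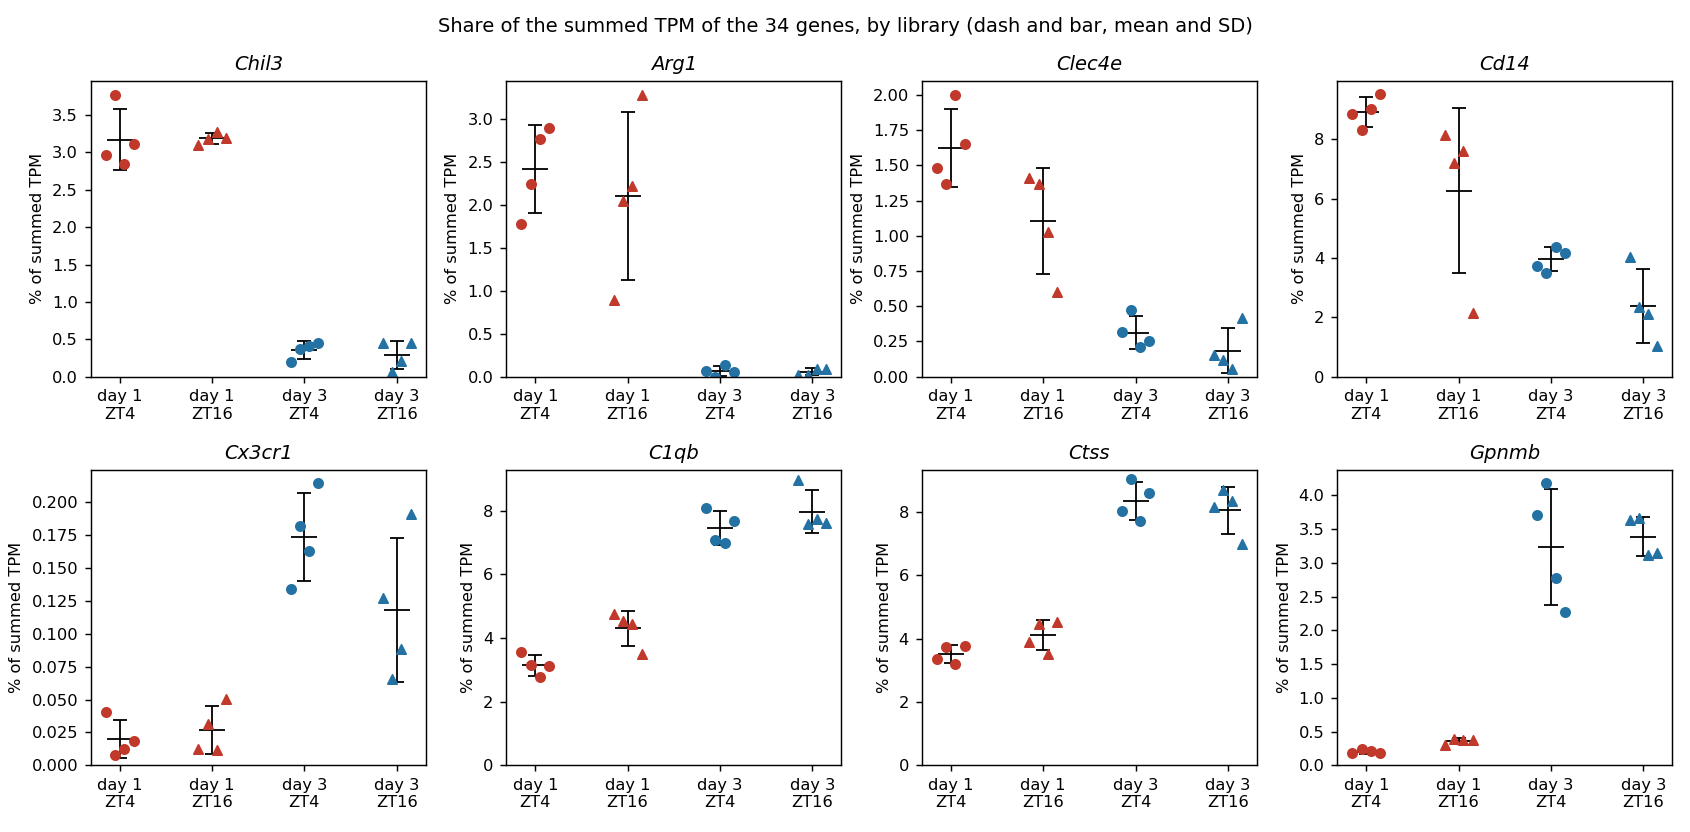
Share of selected genes in the summed TPM of the 34 genes, in percent, with 1 point per library at day 1 and day 3 and the mean and SD as dash and bar. Chil3 falls from at least 2.85% to at most 0.456%, whereas C1qb moves from at most 4.74% to at least 6.97%.

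The times were compared within each state, as the study injured muscle in the light and in the dark phase. In uninjured muscle Cd68 alone of the 34 genes passed, where 17.7% of all genes were called, 8.53% as higher and 9.12% as lower at ZT16. It was at 1.13, 0.866 and 0.801 CPM at ZT4 and 9.31, 3.57 and 5.96 at ZT16, with no overlap (log2 2.71 ± 0.58, adjusted p = 0.00306). Cd14 was at 1.13, 0 and 0.32 against 12.6, 4.14 and 4.26 CPM, also with no overlap, and did not pass (3.72 ± 1.42, adjusted p = 0.0825). Fcgr3 was higher without overlap too, which held for 12.4% of all genes, and Mpeg1 lower (12.9%; −1.09 ± 0.41, adjusted p = 0.0657). Cd68 did not pass in voom (adjusted p = 0.392), and it passed with each single replicate left out. Without ZT16 replicates 1 and 3 its change was 1.88, but that fit leaves 1 library in the group and cannot decide a call. In Spi1, at −2.25 ± 1.07 (adjusted p = 0.16), leaving out ZT4 replicate 1 gave a call (0.026). Of the 30 genes with uninjured counts 23 had a positive estimate, but 13 had without ZT16 replicate 1, the library with the highest uninjured sum.

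At day 1, 33 of the 34 genes had a lower estimate at ZT16 than at ZT4, with a median log2 of −0.55, and none passed. The median over all genes tested was 0.007. Genes of the same libraries are not independent, so the count of signs is a description. No gene of the 15084 passed in this comparison in edgeR (0% called), with 920 at an unadjusted p below 0.05, 7 of the 34 among them. DESeq2 and voom called 27 and 46 of all genes, and 0 of the 34. The summed level was 3538, 3864, 6101 and 3724 CPM at ZT4 and 3699, 2767, 2080 and 1983 at ZT16. ZT16 replicate 1 lay within the ZT4 range and the other 3 below it. Lyz2 was at 1399, 1438, 2549 and 1384 CPM at ZT4 and 1315, 1003, 760 and 858 at ZT16, with no overlap (−0.78 ± 0.44, adjusted p = 0.899). Cd14 was at 369, 383, 665 and 419 CPM against 357, 230, 187 and 51.8 (−1.15 ± 0.58, adjusted p = 0.863). Itgam and Cd300lb also did not overlap, so 4 genes were lower in this way and 0 higher, against 2.25% and 2.08% of all genes.

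Arg1 had the smallest p at this day (−1.09 ± 0.31, adjusted p = 0.521), followed by Clec4e (−1.12 ± 0.40, 0.645), Cd300lb (−0.94 ± 0.35, 0.686), Tyrobp (−0.78 ± 0.29, 0.698) and Chil3 (−0.71 ± 0.28, 0.721). C1qa and C1qb were at −0.11 ± 0.44 and −0.21 ± 0.41. Single libraries moved these estimates: ZT4 replicate 3 was the highest of its group for 32 of the 34 genes, and ZT16 replicate 1 was the highest of its own for 27. The median was −0.38 without the former and −0.78 without the latter. In the same libraries the sum of neutrophil markers ranged from 87.9 to 322 CPM in ZT4 and from 31.5 to 90.4 in ZT16 libraries. That of mast cell markers ranged from 143 to 252 and from 60.1 to 115, and that of myofiber markers from 359 to 820 and from 121 to 442. Their part in the difference was not tested.

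At day 3, 29 of the 34 genes had a lower estimate at ZT16, with a median of −0.18, against 0.003 over all genes tested. None passed, and none had an unadjusted p below 0.05. Of all genes none passed in edgeR (0% called), with 1003 at an unadjusted p below 0.05. No member was without overlap between the times, against 3.03% of all genes lower in that way. The ZT16 libraries spread widely: replicate 1 was the highest of its group for 32 genes and replicate 4 the lowest for 24. Without replicate 4 the estimate was negative for 15 genes and positive for 19 (median 0.04), and without replicate 1 it was negative for all 34 (median −0.58). Without the 4 libraries with the most genes with counts it was negative for 12 and positive for 22 (median 0.21).

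The difference of the ZT16 to ZT4 change between injured and uninjured muscle was tested directly. Of the 34 genes Cd68 alone passed, with a lower change at day 1 (log2 −3.27 ± 0.64, adjusted p = 0.00574) and at day 3 (−2.88 ± 0.65, adjusted p = 0.0064) than in uninjured muscle. Of all genes 7.46% were called at day 1 (3.53% as lower, 3.93% as higher) and 12.8% at day 3 (5.97% as lower, 6.8% as higher). Both tests share the uninjured libraries, whose ZT may not mean the time of an injury, and where Cd68 rested on 0.801 to 9.31 CPM. In voom the adjusted p of Cd68 were 0.372 and 0.328, and both calls held with each single replicate left out. Without uninjured ZT16 replicates 1 and 3 the differences were −2.45 and −2.05, from a fit that leaves 1 library in that group. Cd14 had larger differences that did not pass (−4.88 ± 1.51, adjusted p = 0.0617; −4.36 ± 1.55, 0.0763), but passed without day 1 ZT16 replicate 1 (0.0447) in the former and without day 3 ZT16 replicate 1 (0.0176) in the latter. Between day 3 and day 1 no gene passed in edgeR (0% called), with 711 at an unadjusted p below 0.05.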

How the data were processed

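The deposited files hold RSEM output per transcript, per the file headers: the authors' expected counts, TPM, FPKM and the percent of a gene's output that a transcript makes up. Trimmomatic 0.33, STAR 2.5.2, RSEM 1.3.3 and DESeq2 were used with mm10, per the submitters' processing notes, and the annotation release and the strand setting are not given in the sources used here. Replicates were not pooled. Expected counts of 103732 transcripts were summed to 43430 genes and rounded. Symbols came from GENCODE M21 on GRCm38 (42462 genes). TPM was summed per gene to compare genes, and Csf1r transcripts were described from their expected counts. The deposited percent and FPKM were not used.

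One edgeR 4.0.16 fit (R 4.3.3) covered 22 libraries and 6 group means, with TMM (factors 0.942 to 1.094), the edgeR filter on low counts (minimum 10, total 15), which all 34 genes passed, robust quasi-likelihood dispersion (common 0.0444), and Benjamini-Hochberg adjustment over 15084 genes. 28346 genes were not tested. Errors are SE, derived from the F statistic and the log2 change. Library totals of 5965957 to 9751536 counts limit genes below about 1 CPM, where intervals and floors (3 counts) cover counting error only.

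The 34 genes and all lists were chosen with earlier results of these data known. Named genes were the 34, all ligands, up to 4 genes of each other list with the smallest p in a comparison, marker genes as levels, and Pax7 and Myod1. Alternatives were DESeq2 1.42.0, limma 3.58.1 (voom), other filters, scaling and samples, and each replicate left out. The set without the 4 libraries with the most genes with counts, and Csf1r from its shorter transcript, were chosen after seeing the data. Tables and plots of levels used pandas 2.3.3, scipy 1.17.1, numpy 2.4.6 and matplotlib 3.10.9 under Python 3.11.15.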

Additional observations from a re-analysis of the deposited data

Results flagged for a closer look

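In 140 groups of 4 libraries, 34 genes and the summed level were searched for a library that stands apart by Dixon's criterion, which chance meets in about 1 of 20 groups; 12 did. Day 1 ZT4 replicate 3 stood above its group in 5 of them: Itgam at 165 CPM (others 96.7 to 105), Cd14 at 665 (369 to 419), Clec4e at 205 (92.6 to 106), Cybb at 31.3 (18.5 to 20.7) and Lyz2 at 2549 (1384 to 1438). Its summed level of the 34 genes, 6101 CPM (3538 to 3864), stood apart as well. Day 3 ZT4 replicate 4 was high for Tlr13 at 10.2 CPM (4.17 to 5.18), Cx3cr1 at 6.82 (3.77 to 4.16) and Mrc1 at 12.1 (5.98 to 6.83). Day 3 ZT4 replicate 1 was high for Adgre1 at 21.7 CPM (16.9 to 17.1), and replicate 2 low for Ms4a7 at 9.87 (18.9 to 19.9). Day 3 ZT16 replicate 1 was high for Cybb at 23.5 CPM (11.6 to 12.3).

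The change of Cd68 from ZT4 to ZT16 differed between injured and uninjured muscle by an interaction test, by −3.275 (log2) at day 1 and by −2.88 at day 3. It was the only one of the 34 genes called, where 7.46% and 12.8% of all genes were. The call was lost in voom (adjusted p = 0.372 and 0.328) and kept with each single replicate left out. Without uninjured ZT16 replicates 1 and 3, which leaves 1 library in that group, the differences were −2.45 and −2.05.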

How the results depend on the processing

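For 120 single results, 2968 alternative values were computed: 2897 kept their direction and side of the threshold, 22 lost a call, 46 gained one and 3 reversed. The reversals were Arg1 at day 3 against uninjured, within ZT4 (0.11) and without uninjured ZT16 replicate 1 (0.17; −0.67 to 0.17 over all replicates left out), and Cybb at day 3 against day 1 without the 4 libraries with the most genes with counts (0.06). The count of the 34 genes called stayed at 33 to 34 for day 1 against uninjured, 31 to 33 for day 3 against uninjured and 24 to 32 for day 3 against day 1. In uninjured ZT16 against ZT4 the count was 1. It was 5 in DESeq2, 0 in voom, 10 with no filter and 2 with the uninjured libraries alone. Of all genes 20.5%, 12.6%, 9.41% and 4.28% were called there. Leaving out each replicate gave 1 to 2. The set without ZT16 replicates 1 and 3 left 1 library in its group, so no count is given for it. With no filter, ZT16 against ZT4 gave 11 calls at day 1 (0.924% of all genes) and 2 at day 3 (0.434%), where the main counts were 0, and adjusted p became extremely small in that fit. For the difference of the ZT change between day 1 and uninjured (main 1), DESeq2 gave 3, voom 0 and no filter 11. These fits called 10.1%, 4.89% and 5.27% of all genes. For day 3 (main 1), these gave 2, 0 and 9 (16.1%, 10.8% and 7.24%). Leaving out each replicate gave 1 to 2 in both. With the replicate number as a block (replicate block), both counts were 2, with Cd14 added. Numbers did not pair the libraries: deviations of same-numbered libraries correlated at −0.091 to 0.105, 1 of 11 pairs was above 0.1, and 3 of 11 correlated best with their own number. The block added C1qb to the calls of day 3 against day 1 (adjusted p = 0.0339) and Gpnmb to those of day 1 against uninjured (0.0467). In voom, Cd14 (0.131) and Clec4e (0.101) lost their day 3 call against uninjured, and C1qa, C1qb, Ctss, Trem2 and Cx3cr1 gained one against day 1. Depth limits genes near 1 CPM or below in uninjured libraries.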
